A study of Mus musculus with 4 samples.

Results

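The genes described here build the link between meiotic telomeres and the cytoskeleton, together with the nuclear envelope it crosses. They are Terb1, Terb2, Majin, Sun1, Kash5, Syne1, Syne2, Lmnb1, Lmnb2 and Emd, 10 genes chosen by name out of 15733 protein-coding genes with read counts. Their mRNAs were measured by RNA-seq in mouse pachytene spermatocytes after the ex vivo exposure of testicular single-cell suspensions to BMH21, a DNA intercalator that inhibits RNA polymerase I. There were 4 libraries: 2 biological replicates of cells kept with 2.5 µM BMH21 for 12 h and 2 of cells kept for the same 12 h with the solvent DMSO, labelled mock. After the exposure, pachytene cells were isolated by FACS using Hoechst staining of DNA. Strain, genotype, age and the number of animals behind a replicate are not given in the sources used here.

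In meiotic prophase each telomere is carried to the inner nuclear membrane by a complex of TERB1, TERB2 and the membrane protein MAJIN. There it meets SUN1, an inner membrane protein whose lumenal part binds KASH5 in the outer membrane, and KASH5 recruits cytoplasmic dynein, so that motor force in the cytoplasm moves chromosome ends and helps homologous chromosomes to pair. Loss of Terb1, Terb2, Majin, Sun1 or Kash5 is known to arrest male meiosis in mice.

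Each library had between 30964370 and 41548269 counts in all. The 10 marker genes of pachytene spermatocytes summed to 5410 and 5500 CPM in mock and 5230 and 5330 CPM in BMH21 (CPM, counts scaled to library size with TMM factors). Ybx2 (2289 CPM in mock) and Spag6l (745 CPM) led them. Of the 10, 3 rose and 3 fell, beside 16.5% higher and 12.5% lower over all tested genes. With no other cell population measured, these levels do not establish the identity of the cells by themselves. The 9 spermatid markers, led by Akap4 (64.9 CPM) and Prm2 (64.1 CPM), summed to 301 to 302 CPM in mock and 317 to 318 CPM in BMH21. Of the 9, 0 rose and 0 fell by the test. In BMH21 the X-linked Akap4 was at 71.2 CPM and Prm2 at 65.0 CPM. The spermatogonium list, led by Gfra1 (8.54 CPM) and Kit (4.19 CPM), summed to 17.3 to 18.9 CPM in mock and 13.5 to 16.1 CPM in BMH21, with 2 of 4 tested lower; Dmrt1 and Sall4 were each at 0 in 1 library. The Leydig cell list, led by Star (8.97 CPM) and Insl3 (0.236 CPM), summed to 9.13 to 9.54 CPM and 6.49 to 7.26 CPM, with 1 of 2 tested lower. The lower gene was Star, at 6.34 CPM in BMH21. Insl3 went the other way, to 0.465 CPM in BMH21, and was not called. Sertoli cell (Dhh, Amh), macrophage (Csf1r, Adgre1), endothelial cell (Pecam1, Kdr) and peritubular cell (Tagln, Acta2) markers summed to between 1.57 and 6.30 CPM per list in each library. The part of other cell types in the differences below was not tested, and in sorted bulk samples fewer cells of a type and less RNA per cell cannot be told apart.

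BMH21 was compared with mock to see which mRNAs of this pathway differed after the exposure. Of the 10 genes, all of which passed the filter on low counts, 4 fell and 0 rose: Terb1, Terb2, Kash5 and Syne2 were lower in BMH21. The test was edgeR's quasi-likelihood test over 13793 genes, and a gene counted as changed where its p, adjusted by Benjamini and Hochberg's method over these genes, was under 0.05. Over all tested genes 12.5% were called lower and 16.5% higher; among autosomal genes that averaged 10 CPM or more, a class that holds 7 of the 10 genes and all 4 that fell, 17.4% were called lower and 21.1% higher. At an unadjusted p under 0.05 edgeR gave the same 4 lower and 0 higher, and DESeq2 called 4 lower and 0 higher. The changes were small. None of the 10 genes reached a 2-fold difference, and the median log2 fold change over the 10 was -0.07, against -0.00029 over all tested genes (quartiles -0.17 and 0.18). Over the whole table edgeR gave 2282 genes higher and 1731 lower (56.9% higher); with upper quartile scaling the split was 1805 and 2480 (42.1% higher), and of the 10 genes 4 were lower and 0 higher there too.

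**Figure D1:**
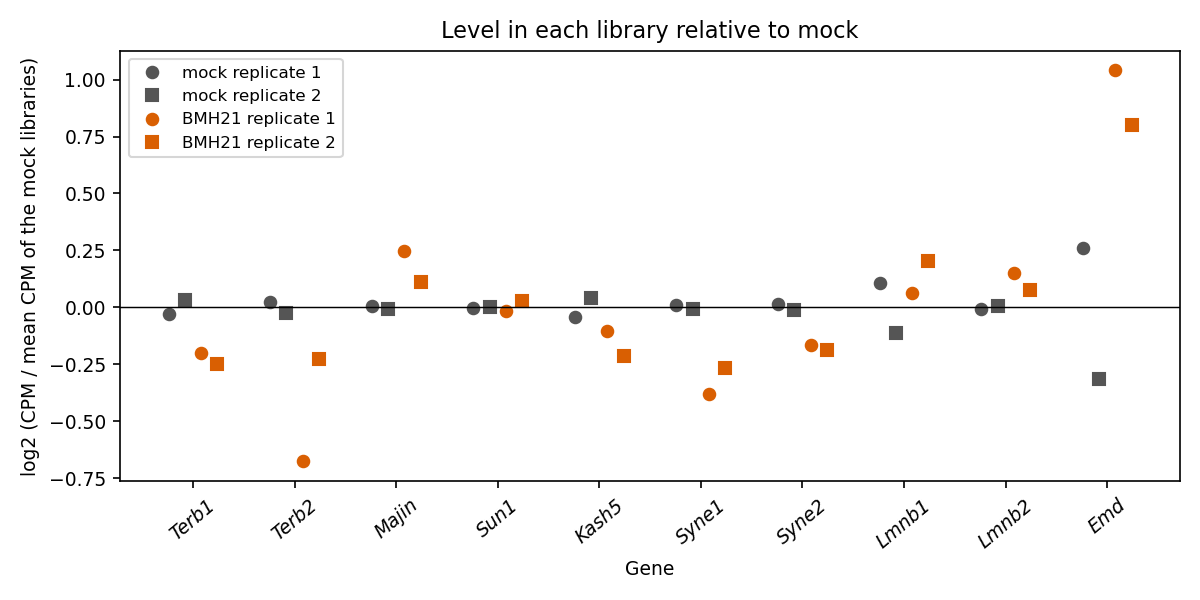
Level of each of the 10 genes in each library, as the log2 ratio of its CPM to the mean CPM of the 2 mock libraries; grey points are mock, orange points BMH21, circles replicate 1 and squares replicate 2. For Terb1, Terb2, Kash5, Syne1 and Syne2 both BMH21 points lie below both mock points, and for Majin, Lmnb2 and Emd both lie above. Of these, Syne1, Majin, Lmnb2 and Emd did not pass the test. Such separation was not counted over all tested genes, and with 2 libraries against 2 it is no test of a difference. Even full separation gives an exact two-sided permutation p of 0.333.

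Sequences before the RefSeq starts of 3 of the genes that fell are shown to see what their start regions hold, beside that of Emd. RefSeq promoters on GRCm38.p6 matched 7 of the 10 genes by symbol, with 11 start sites among them; Terb2, Majin and Lmnb1 were not matched. Each stretch is read 5′ to 3′ on the strand of the gene and comes from the 250 bases before the RefSeq start; where the GENCODE annotation places an exon among them, the longest run without exon bases is shown. For Syne2 an annotated Syne2 exon lies upstream of the RefSeq start, so its stretch falls inside the annotated gene. Capitals mark matches to a GC box (GGGCGG) or a CCAAT box (CCAAT) on either strand.
Terb1 (chr8:104509911-104510137, minus strand): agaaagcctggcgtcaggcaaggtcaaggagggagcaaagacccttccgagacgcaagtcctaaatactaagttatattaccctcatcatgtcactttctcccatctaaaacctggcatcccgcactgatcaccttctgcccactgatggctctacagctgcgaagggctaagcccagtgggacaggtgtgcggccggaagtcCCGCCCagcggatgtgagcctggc
Kash5 (chr7:45204893-45205142, minus strand): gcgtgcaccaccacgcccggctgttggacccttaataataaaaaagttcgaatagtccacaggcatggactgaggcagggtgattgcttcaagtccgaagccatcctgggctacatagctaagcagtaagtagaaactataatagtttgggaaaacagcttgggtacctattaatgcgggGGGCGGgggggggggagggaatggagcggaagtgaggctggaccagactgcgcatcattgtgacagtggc
Syne2 (chr12:75818189-75818317, plus strand): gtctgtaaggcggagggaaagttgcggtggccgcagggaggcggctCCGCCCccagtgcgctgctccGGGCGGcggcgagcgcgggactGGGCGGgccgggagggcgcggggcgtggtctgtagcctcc
Emd (chrX:74254437-74254686, plus strand): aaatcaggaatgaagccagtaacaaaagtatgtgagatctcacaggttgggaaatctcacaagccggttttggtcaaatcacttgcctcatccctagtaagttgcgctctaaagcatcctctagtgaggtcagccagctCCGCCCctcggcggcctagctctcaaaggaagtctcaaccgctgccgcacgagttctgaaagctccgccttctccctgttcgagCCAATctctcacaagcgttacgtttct

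As the capitals show, Terb1 and Kash5 each hold 1 GC box in the 250 bases before the start and Syne2 holds 3, and the Emd stretch holds 1 GC box and 1 CCAAT box. GC boxes were found in 7 of the 11 windows and in 32.7% of all 32851 promoters of the same length. The CCAAT box was in 3 of the 11 and in 33.8% of all, the core AACTG bound by the meiotic regulator A-MYB in 2 and 39.1%, and TATAAA in 2 and 12.4%. The cyclic AMP response element TGACGTCA and the motif CNCCTCAG of the meiotic initiators STRA8 and MEIOSIN were in 0 of the 11, against 1.55% and 6.42% of all. In the second Sun1 window a CCAAT and a TATAAA match share a base. The Syne2 window had a GC content of 70.0% and 26 CpG dinucleotides, Terb1 58.0% and 13, Kash5 53.2% and 9, and Emd 51.2% and 12, against medians of 52.4% and 6 over all promoters. These are matches of letters, not measured binding.

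Terb1 encodes the TRF1-binding scaffold of the telomere complex. It lies on chromosome 8 at 104446719 to 104509910 on the minus strand of GRCm38 (ENSMUSG00000052616.11). Its level was 96.6 and 101 CPM in the mock libraries and 86.0 and 83.0 CPM in the BMH21 libraries, from 2849 to 4055 reads per library. Both BMH21 libraries were below both mock libraries. The mean went from 98.8 ± 2.98 to 84.5 ± 2.09 CPM (SD, n = 2 each). The fitted difference was -0.22 on the log2 scale (SE 0.05, adjusted p = 1.63e-04 by edgeR). Leaving out 1 library at a time gave -0.25 to -0.19.

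Terb2, the partner that joins TERB1 to MAJIN, lies on chromosome 2 at 122186272 to 122206397 on the plus strand (ENSMUSG00000027229.6). It was at 18.5 and 17.9 CPM in mock and at 11.4 and 15.5 CPM in BMH21. The groups did not overlap, but the BMH21 replicates stood apart from each other, with replicate 1 the lower. The mean went from 18.2 ± 0.429 to 13.5 ± 2.94 CPM (SD, n = 2 each). The fitted difference was -0.43 on the log2 scale (SE 0.11, adjusted p = 0.00228 by edgeR). This call rested on BMH21 replicate 1. Without it the log2 fold change was -0.23 and the edgeR adjusted p 0.213, and without BMH21 replicate 2 the log2 fold change was -0.68.

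Majin, which anchors the complex in the inner nuclear membrane, lies on chromosome 19 at 6184388 to 6224225 on the plus strand (ENSMUSG00000024786.10). Its level was 21.8 and 21.6 CPM in mock and 25.8 and 23.5 CPM in BMH21. Both BMH21 libraries were above both mock libraries, yet the log2 fold change of 0.18 (95% interval -0.0036 to 0.36) did not pass the test (edgeR adjusted p = 0.143).

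With these differences known, the 3 mRNAs of the telomere complex were set against each other within each library, per kilobase (kb) of annotated exon. The ratios restate the differences above. The Terb2 to Majin ratio was 0.658 and 0.644 in mock and 0.343 and 0.514 in BMH21, so every BMH21 library was lower. The Terb1 to Majin ratio was 1.94 and 2.05 in mock and 1.46 and 1.55 in BMH21, again without overlap. The Terb1 to Terb2 ratio was 2.95 and 3.18 in mock and 4.26 and 3.01 in BMH21, and here the groups overlapped. An exact two-sided permutation test of the log2 ratios gave p = 0.333 for each of the first pair of ratios and p = 0.667 for the third; with 2 libraries against 2 no p below 0.333 can be reached, so these ratios are descriptions.

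Sun1 encodes the inner membrane protein that receives the telomere complex (chromosome 5, 139200637 to 139249840, plus strand, ENSMUSG00000036817.15). Its mRNA was at 84.9 and 85.2 CPM in mock and at 84.1 and 86.8 CPM in BMH21. The groups overlapped. The log2 fold change was 0.0079, with a 95% interval of -0.09 to 0.11 and an edgeR adjusted p of 0.938. An annotated antisense gene covers 3.98% of its exon bases on the opposite strand.

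Kash5, the dynein adaptor of the outer membrane, lies on chromosome 7 at 45183624 to 45204892 on the minus strand (ENSMUSG00000038292.15, named Ccdc155 in the annotation). Its level was 132 and 140.1 CPM in mock and 127 and 117 CPM in BMH21. Both BMH21 libraries were lower, with a gap between the nearest libraries that was smaller than the spread within each group. The mean went from 136 ± 5.82 to 122 ± 6.65 CPM (SD, n = 2 each). The fitted difference was -0.16 on the log2 scale (SE 0.04, adjusted p = 0.00280 by edgeR). The call was lost without mock replicate 2 (-0.11, edgeR adjusted p = 0.131) and without BMH21 replicate 2 (-0.10, edgeR adjusted p = 0.0946). The Kash5 to Sun1 ratio per kb was 4.99 and 5.29 in mock and 4.83 and 4.34 in BMH21, lower in both BMH21 libraries.

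The KASH genes Syne1 and Syne2 encode the giant nesprins, outer membrane proteins that tie nuclei to actin and to microtubule motors in many cell types. Syne2 (chromosome 12, 75818134 to 76110926, plus strand, ENSMUSG00000063450.15) had the most reads of the 10 genes, 11607 to 16625 per library. It was at 396 and 389 CPM in mock and at 350.4 and 345 CPM in BMH21. The replicates lay close together and the groups far apart. The mean went from 393 ± 5.22 to 348 ± 3.84 CPM (SD, n = 2 each). The fitted difference was -0.18 on the log2 scale (SE 0.03, adjusted p = 4.54e-07 by edgeR), and lay between -0.19 and -0.16 whichever library was left out.

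Syne1 (chromosome 10, 5020917 to 5551482, minus strand, ENSMUSG00000096054.4) was expressed far more weakly. It was at 4.50 and 4.45 CPM in mock and at 3.44 and 3.72 CPM in BMH21, from 114 to 189 reads. Both BMH21 libraries were lower, and the log2 fold change of -0.32 (95% interval -0.73 to 0.09) did not pass the test (edgeR adjusted p = 0.264). The Syne2 to Syne1 ratio per kb was 133 and 132 in mock and 154 and 140 in BMH21, higher in both BMH21 libraries; the exact two-sided permutation p was 0.333, the smallest this design allows. Both genes have many transcripts, 9 for Syne1 and 17 for Syne2 in the annotation, and gene-level counts do not tell which carried the reads, with or without the KASH end.

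The B-type lamins, filament proteins under the inner membrane, did not change by the test. Lmnb1 (chromosome 18, 56707813 to 56753424, plus strand, ENSMUSG00000024590.9) was at 14.5 and 12.5 CPM in mock and at 14.1 and 15.5 CPM in BMH21. The groups overlapped, and the log2 fold change was 0.13 (95% interval -0.10 to 0.36, edgeR adjusted p = 0.455). Lmnb2 (chromosome 10, 80901203 to 80918245, minus strand, ENSMUSG00000062075.14), whose gene also gives rise to a germ-cell lamin isoform, was at 9.37 and 9.44 CPM in mock and at 10.4 and 9.91 CPM in BMH21. Both BMH21 libraries were slightly above both mock libraries, with a log2 fold change of 0.11 (95% interval -0.16 to 0.38, edgeR adjusted p = 0.603). The Lmnb1 to Lmnb2 ratio per kb was 2.25 and 1.91 in mock and 1.95 and 2.27 in BMH21, with overlap.

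**Figure D2:**
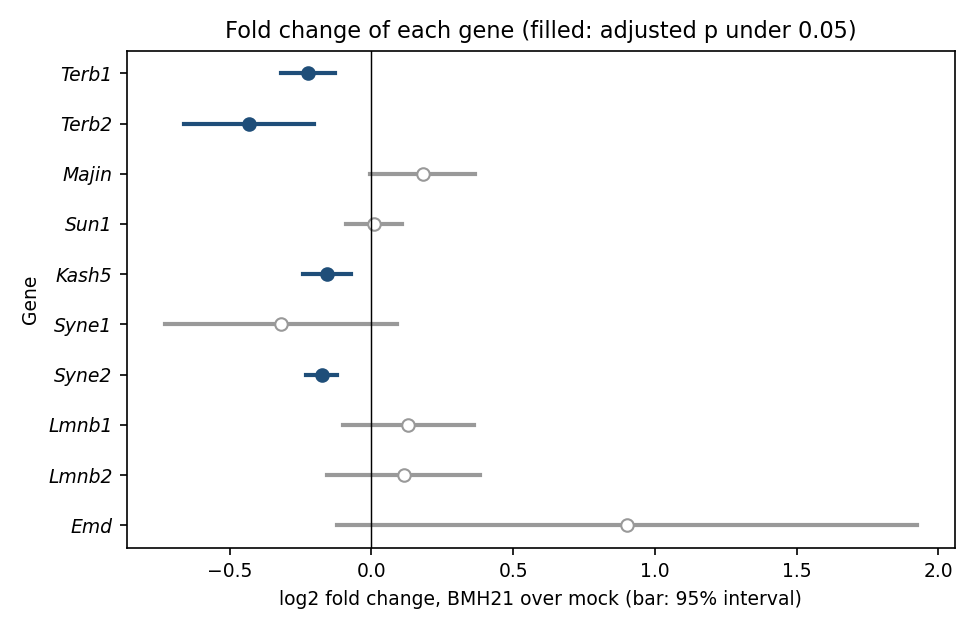
Log2 fold change of BMH21 over mock for each of the 10 genes (points) with its 95% interval from edgeR (bars); filled points passed an adjusted p under 0.05. The 4 filled points lie between -0.43 (Terb2) and -0.16 (Kash5), and the widest interval, from -0.12 to 1.93, is that of Emd.

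Emd encodes emerin, a LEM-domain protein of the inner membrane that binds lamins and the chromatin protein BAF. It is the X-linked gene among the 10 (chromosome X, 74254687 to 74261548, plus strand, ENSMUSG00000001964.15), and the X chromosome is silenced at pachytene. Emd had 28 and 14 reads in the mock libraries and 38 and 36 in the BMH21 libraries, which is 0.667 and 0.448 CPM against 1.15 and 0.972 CPM. Both BMH21 libraries were higher. The log2 fold change of 0.90 (95% interval -0.12 to 1.93) did not pass the test (edgeR adjusted p = 0.197), and it was 0.66 to 1.23 with 1 library left out. A processed pseudogene, Gm14686, covers 13.6% of the Emd exon bases on the same strand, so part of these few reads could not be assigned with certainty.

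Of 343 X-linked genes tested, 251 (73.2%) were called higher and 1 (0.292%) lower, with a median log2 fold change of 4.19, and 261 (76.1%) had a larger fold change than Emd. X-linked genes that were low in mock entered the test more readily where they rose, so these shares describe the tested genes. Among the 121 tested X-linked genes whose mock mean was within 2-fold of that of Emd (0.279 to 1.12 CPM, Emd included), 64 were called higher. The median log2 fold change of the 121 was 1.59. Within 200 kb of Emd, 9 of 10 tested genes were called higher, with log2 fold changes from 3.15 to 8.45. The tenth was the adjacent Flna, which encodes the actin crosslinker filamin A, with means of 0.599 CPM without and 0.668 CPM with BMH21 (log2 fold change 0.21, edgeR adjusted p = 0.856; -0.52 without mock replicate 1). On the other side of Emd, the ribosomal protein gene Rpl10 had a log2 fold change of 3.16 and Atp6ap1, for a subunit of the vacuolar proton pump, of 8.45. Their mock means were only 0.311 and 0.0320 CPM. Without mock replicate 1 the Atp6ap1 value was 7.32, and without mock replicate 2 it was 11.7. These 3 neighbours were chosen with their values in view.

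**Figure D3:**
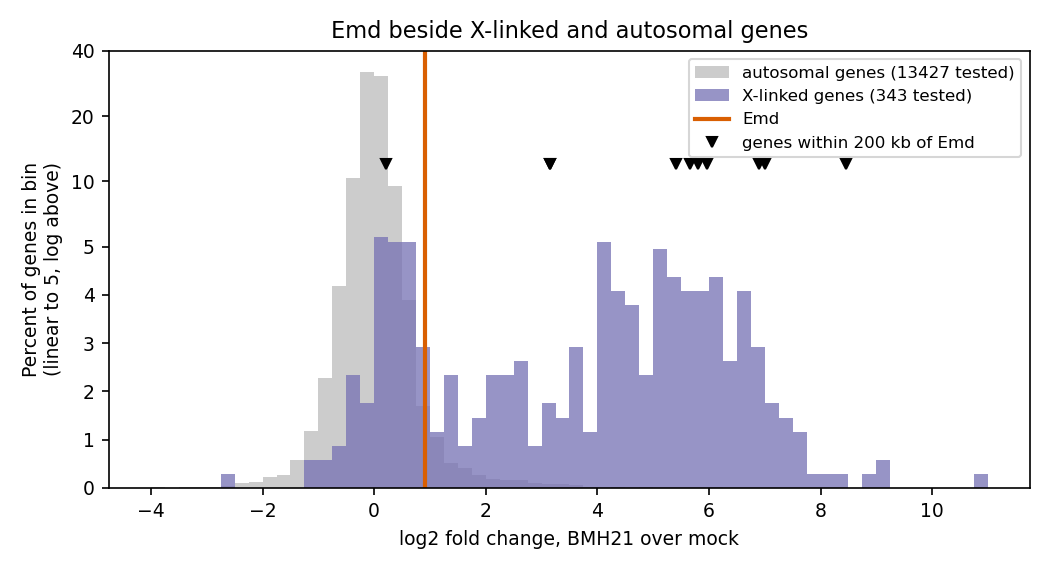
Distribution of the log2 fold change (x axis, bins of equal width) over X-linked and autosomal genes as percent of the genes in each class (y axis, linear to 5 and logarithmic above), with Emd as a vertical line and the 10 tested genes within 200 kb of it as triangles set at an arbitrary height. Emd, at 0.90, sits between the bulk of the autosomal genes and the X median of 4.19.

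Levels of different genes were compared per length only, as CPM per kb of annotated exon. In mock, Kash5 was the most abundant of the 10 mRNAs at 57.5 ± 2.46 CPM per kb, followed by Terb1 at 26.3 ± 0.792 (SD, n = 2 each). Syne2 was next at 14.7 ± 0.198, then Majin at 13.2 ± 0.106, Sun1 at 11.2 ± 0.028 and Terb2 at 8.60 ± 0.203 CPM per kb. The lamins were lower, Lmnb1 at 4.56 ± 0.491 and Lmnb2 at 2.19 ± 0.013 CPM per kb. Emd at 0.221 ± 0.062 and Syne1 at 0.111 ± 0.00099 CPM per kb were last, so the meiosis-specific genes and Sun1 and Syne2 stood above the lamins, emerin and Syne1. Replicates of neighbouring genes in this order did not overlap, in mock or in BMH21. In BMH21 the order differed in 1 place: Majin (15.0 ± 0.990 CPM per kb) stood above Syne2 (13.0 ± 0.141). The order depends on the length used: with the longest annotated coding transcript in place of all exons, the mock level of Sun1 was 20.6 CPM per kb, above Syne2 at 18.1 and Majin at 13.9. With that length Syne1 stayed last at 0.160 CPM per kb. Its annotated coding transcripts run from 2726 to 27908 bases, so its place depends on which of them carried the reads, and that was not measured.

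**Figure D4:**
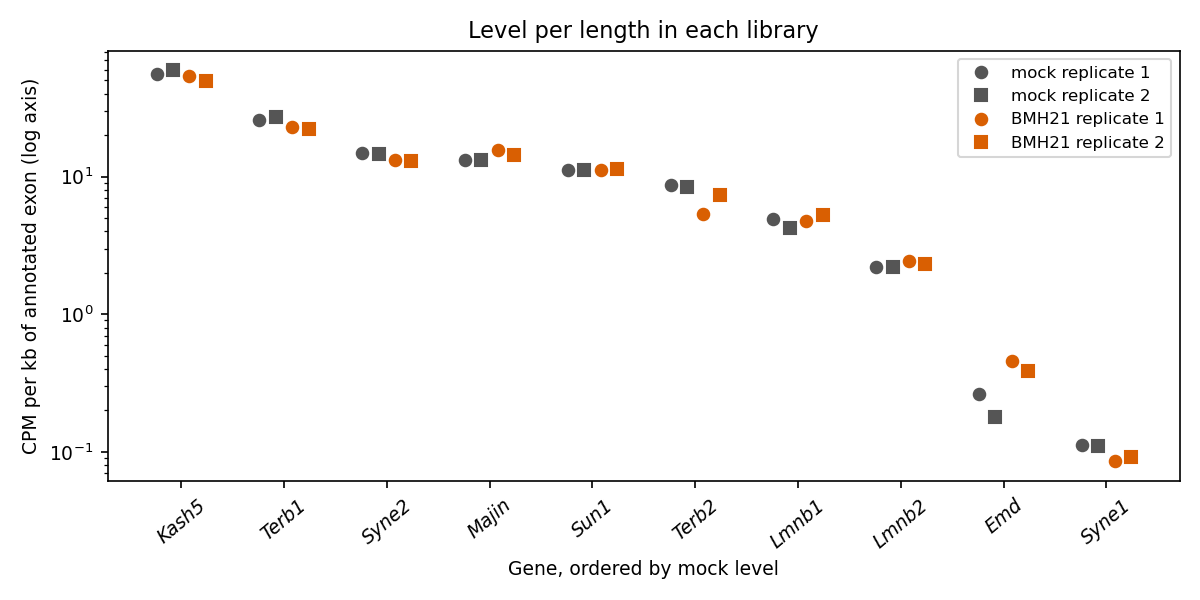
CPM per kb of annotated exon (y axis, logarithmic) of each gene in each library, ordered by the mock level; grey points are mock, orange points BMH21, circles replicate 1 and squares replicate 2. Levels run from 57.5 CPM per kb for Kash5 to 0.111 CPM per kb for Syne1 in mock. This full range is far wider than the differences between groups, but some genes next to each other, such as Syne2 and Majin, lie close together.

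Genes that work beside the 10 were read from lists of the pathway. Shelterin, which caps telomeres and hands them to the TERB1 complex, and the telomere kinase CDK2 made up a list of 9 genes, of which 8 were tested and Speedya was not analysed here; 1 rose, 1 fell and 6 were not called, near the 16.5% higher and 12.5% lower over all tested genes, with a median log2 fold change of -0.02. Cdk2, whose kinase sits at meiotic telomeres, rose from 241 ± 0.644 to 279 ± 5.51 CPM (SD, n = 2 each), and edgeR put the log2 difference at 0.21 (SE 0.03, adjusted p = 8.06e-08). Pot1a, one of the mouse genes for the protein that binds the single-stranded telomere end, fell from 3.04 ± 0.318 to 1.40 ± 0.151 CPM (SD, n = 2 each), and edgeR put the log2 difference at -1.11 (SE 0.29, adjusted p = 0.00168); it has a close paralog, Pot1b, so reads may have been shared between the pair. Terf1, whose protein recruits TERB1, was at 44.9 and 48.0 CPM in mock and at 50.5 and 48.4 CPM in BMH21 (edgeR adjusted p = 0.327). Under upper quartile scaling 3 of this list were lower, and without BMH21 replicate 2 there were 2.

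Of the 7 other SUN and KASH genes, 1 fell, 0 rose and 6 were not called. This share of lower genes was near the 12.5% over all tested genes. The median log2 fold change was -0.33, against -0.00029 over all tested genes. That median is the value of the gene that fell, and the genes below it were not called. At an unadjusted p under 0.05 edgeR gave that same gene alone, and DESeq2 called 1 lower and 0 higher. It was Sun3, a SUN gene of the spermatid nuclear envelope, which went from 36.9 ± 0.767 to 29.4 ± 0.309 CPM (SD, n = 2 each), and edgeR put the log2 difference at -0.33 (SE 0.08, adjusted p = 6.23e-04). Sun2, which overlaps in function with Sun1, was at 21.6 and 26.5 CPM in mock and at 28.1 and 25.7 CPM in BMH21, with overlap (log2 fold change 0.17, edgeR adjusted p = 0.178). Without mock replicate 2, Sun2 was called higher (0.32, edgeR adjusted p = 0.0243).

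Of the 21 genes of the lamina and inner membrane list, 7 rose, 3 fell and 11 were not called, with a median log2 fold change of -0.0053. Over all tested genes 16.5% were higher and 12.5% lower, and among autosomal genes that averaged 10 CPM or more 21.1% and 17.4%. The share of lower genes in the list was near this background, and the share of higher genes, 7 of 21, was above it. No set test was run. Lbr, the lamin B receptor that tethers heterochromatin, rose from 58.4 ± 0.350 to 79.7 ± 1.17 CPM (SD, n = 2 each), and edgeR put the log2 difference at 0.45 (SE 0.05, adjusted p = 4.12e-10). Tmem201, which encodes an inner membrane protein that partners with SUN proteins and emerin, rose from 9.89 ± 0.945 to 17.2 ± 1.85 CPM (log2 difference 0.80, SE 0.12, adjusted p = 1.39e-07 by edgeR). Icmt, the methyltransferase that finishes the lipid-modified end of B-type lamins, rose from 176 to 209 CPM (log2 fold change 0.25). Tor1aip2, the torsin activator of the endoplasmic reticulum, fell from 70.6 to 58.9 CPM (-0.26). Lmna, the gene of A-type lamins, was at 14.2 and 15.3 CPM in mock and at 14.1 and 13.9 CPM in BMH21 (edgeR adjusted p = 0.705). With upper quartile scaling 6 of the list were lower and 7 higher. In DESeq2, without a filter, with the stricter filter and with the replicate block, 6 were higher.

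KASH5 acts through cytoplasmic dynein and its partner dynactin, and of 18 genes for their subunits and regulators 4 rose, 2 fell and 12 were not called, with a median log2 fold change of 0.01. Both shares were near those over all tested genes, 16.5% higher and 12.5% lower. The motor subunit gene Dync1h1 was at 1414 and 1443 CPM in mock and at 1398 and 1376 CPM in BMH21 (log2 fold change -0.04, edgeR adjusted p = 0.113); it was called lower with upper quartile scaling (-0.09, edgeR adjusted p = 3.09e-04) and without BMH21 replicate 1 (-0.05, edgeR adjusted p = 0.00646). The dynein regulators Nde1 and Ndel1, paralogs that act with LIS1, both rose. Nde1 went from 7.50 ± 0.837 to 19.3 ± 2.22 CPM (SD, n = 2 each), and edgeR put the log2 difference at 1.37 (SE 0.12, adjusted p = 1.04e-14), and Ndel1 from 18.1 ± 1.01 to 25.2 ± 3.45 CPM (log2 difference 0.48, SE 0.10, adjusted p = 7.07e-05 by edgeR). The light chain gene Dynll2 rose by 0.68 on the log2 scale, a call lost without BMH21 replicate 2 (0.42, edgeR adjusted p = 0.0828). Dynlrb2, a light chain gene of high testis expression, fell from 33.8 to 26.6 CPM (log2 fold change -0.34). The number of lower genes in this list was 1 in DESeq2, 4 with upper quartile scaling and 1 to 3 with 1 library left out.

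**Figure D5:**
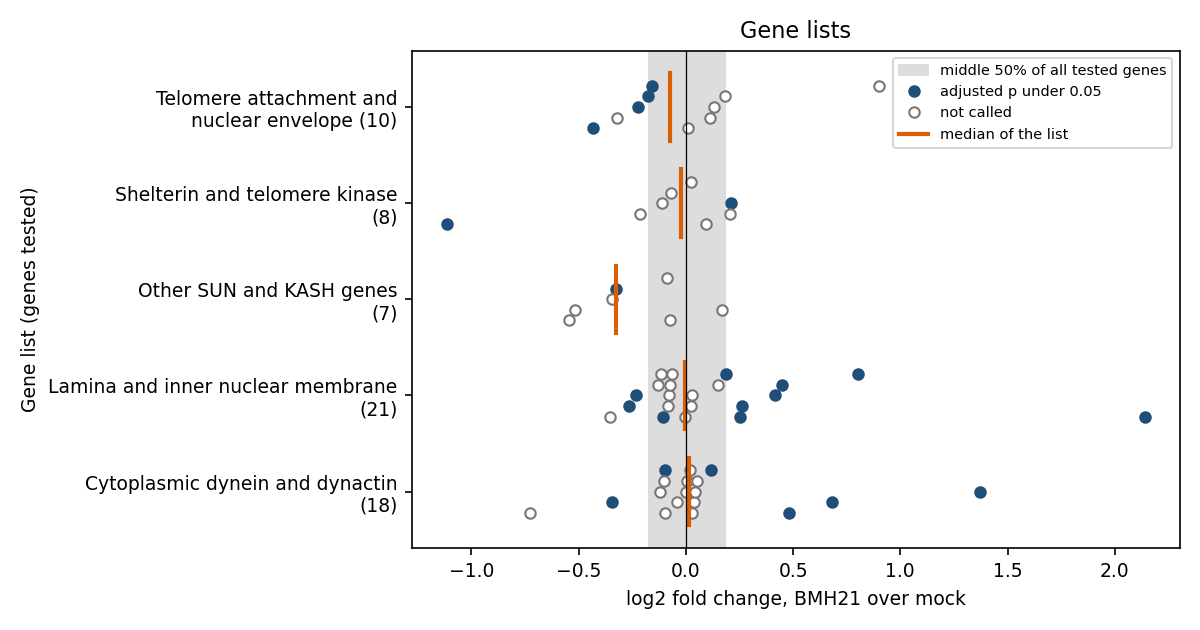
Log2 fold change of BMH21 over mock (x axis) for each tested gene of the 5 lists (rows, with the number tested); filled points passed an adjusted p under 0.05, open points did not, orange bars are list medians and the grey band spans the quartiles of all tested genes, -0.17 and 0.18. The filled points of the 10 telomere attachment and envelope genes all lie below 0, and the shelterin, lamina and dynein lists hold filled points on both sides.

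Of the genes that were called and named from these lists, Lbr shares exon bases with Dnah14, Icmt with Rnf207, Tor1aip2 with Tor1aip1, Sun3 with Gm11992, Cdk2 with Pmel and Nde1 with Marf1, each on the opposite strand and over 0.547% to 9.47% of the named gene's exon bases. Lbr also holds an annotated rRNA gene, Gm26004, on its own strand over 1.45% of its exon bases. The libraries were stranded, but no source used here says whether reads were counted by strand.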

How the data were processed

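Per the labels' protocols, TRIzol RNA of the sorted cells went into stranded mRNA libraries. Per the submitters' processing notes, the tools were featureCounts, STAR, fastp, SAMtools and DESeq2 and the build was mm10; versions and settings are not given in the sources used. The authors deposited a single table with 15733 protein-coding genes, each with at least 4 counts in total. It holds raw read counts, from which every test here starts. The size-factor-normalized values (signal) deposited by the authors entered no test, and neither did the authors' log2 fold changes, the authors' Wald score or the authors' p-values. Gene positions are those of GENCODE M21 on GRCm38, matched by gene identifier; positions in the deposited table were not used.

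Counts were tested in R 4.3.3 with edgeR 4.0.16: filterByExpr (minimum count 10, which removed 1940 genes), TMM scaling, and the quasi-likelihood test with group as the only term. Adjusted p is over the 13793 tested genes, threshold 0.05. The common biological coefficient of variation was 4.09%. The SE is the size of the log2 fold change over the square root of F, and 95% intervals use it; both are approximate. Alternatives were RLE and upper quartile scaling, DESeq2 1.42.0, no filter, a stricter filter (1 CPM in both libraries of a group), the replicate number as a block, and leaving out each library. With 2 libraries per group, the spread behind each p-value is largely shared across genes.

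The genes, the 4 pathway lists and the 8 marker lists were chosen with earlier results of these data known. Text names all 10 genes, up to 4 called genes with the smallest p from each pathway list and the 2 most abundant of each marker list; Terf1, Sun2, Lmna, Pot1b, Dync1h1 and the neighbours of Emd were added after their values were seen. Speedya, Stra8, Sox9, Wt1, Cldn11, Gata4, Cyp11a1, Hsd3b1 and C1qa were not analysed here. The ratios between genes were not among the planned results. No protein sequences were used here.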

Additional observations from a re-analysis of the deposited data

How the results depend on the processing

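Of the fold changes of the 10 genes under the alternatives, 94 kept direction and side of the threshold, 3 lost the call (Terb2 without BMH21 replicate 1 and Kash5 without mock replicate 2 or BMH21 replicate 2) and 2 changed sign: Sun1 read -0.038 with upper quartile scaling, which moved all genes by a median of -0.05, and from -0.018 (without BMH21 replicate 2) to 0.029 with 1 library left out. The count of the 10 genes called lower was 4 under RLE, upper quartile, DESeq2, no filter and the stricter filter, and 3 to 4 with 1 library left out; 0 were higher in each. Emd did not pass the stricter filter. In the pathway lists, counted under alternatives chosen after seeing the data, upper quartile scaling gave 3 shelterin, 6 lamina and 4 dynein genes lower, and DESeq2 gave 1 dynein gene lower. With 1 library left out, lower calls ran from 1 to 2 for shelterin and 1 to 3 for dynein, and higher calls from 0 to 1 for the other SUN and KASH genes. The cause was not tested. Of 110 values for the 11 pathway genes named by rule, 109 kept their call and 1, Dynll2 without BMH21 replicate 2, lost it. Of 147 values for 15 genes named after their values were seen, 127 kept direction and side of the threshold, 16 lost the call, 3 gained one (Sun2 and Dync1h1) and 1 changed sign: Flna read -0.52 to 1.48 with 1 library left out, the lowest without mock replicate 1. DESeq2 gave no adjusted p for Ankle1.

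Same-numbered libraries showed no shared deviation: their deviations from their group means correlated at 0.00964 over genes that averaged 10 CPM or more. This cannot tell whether same-numbered libraries were prepared together. With the replicate number as a block, 4 of the 10 genes were lower and 0 higher, and edgeR gave 2189 genes higher and 1595 lower over all those tested. Depth limits Emd (14 to 38 reads) and Syne1 (114 to 189 reads) most.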

Other observations

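The remaining called genes of the lamina and dynein lists were chosen once their values were known. Zmpste24, the protease that matures prelamin A, fell from 75.6 ± 1.99 to 64.2 ± 0.039 CPM (SD, n = 2 each), and edgeR put the log2 difference at -0.23 (adjusted p = 4.59e-04), and Ankle2, a regulator of nuclear envelope reassembly, had a log2 fold change of -0.11 (edgeR adjusted p = 0.0229; not called by DESeq2, nor when either mock library or BMH21 replicate 1 was left out, with values of -0.11 to -0.10). The LEM-domain genes Lemd2 and Lemd3, relatives of Emd on autosomes, rose by 0.26 and 0.19 on the log2 scale (edgeR adjusted p = 0.00484 and 5.84e-04); Lemd2 lost its call without mock replicate 1 (0.23). Tmem43, an inner membrane partner of emerin and lamins, rose by 0.41 (edgeR adjusted p = 0.00144), a call lost without BMH21 replicate 2 (0.26). Pafah1b1, the gene of the dynein regulator LIS1, rose from 293 to 317 CPM (0.12, edgeR adjusted p = 0.00119), and was not called with upper quartile scaling (0.07). The dynactin gene Dctn1 had a log2 fold change of -0.10 (edgeR adjusted p = 0.0443; not called by DESeq2, nor when either mock library or BMH21 replicate 2 was left out; -0.07 in the last case). Ankle1, a LEM-domain nuclease gene, was at 0.215 and 0 CPM in mock and at 0.694 and 0.378 CPM in BMH21, and its call was lost without a filter, with the replicate block and when mock replicate 2 or either BMH21 library was left out (log2 fold changes of 1.30 to 2.53).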
